A study of Mus musculus with 12 samples.

Results

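The 56 genes described here code for proteins that copy DNA, carry the cell through mitosis or set the pace of the cell cycle. They were chosen by gene symbol, matched to the Ensembl IDs of the deposited table through the GENCODE M21 annotation. Of the 56 symbols, 55 had a row among the 23438 genes of the table, and Cdkn1b was not analysed here. All 55 passed the filter of 1 TPM in 5 or more libraries and entered the tests. RNA was sequenced from bone marrow derived macrophages (BMDMs), which are macrophages grown from marrow cells in culture, after 7 days of differentiation (day 7). The donor animals were atherosclerotic mice of C57 background. The first group holds 5 libraries labelled Baf60a KO, a knockout of the chromatin remodelling subunit that Smarcd1 encodes, and the second holds 7 libraries labelled WT. The labels do not say in which cells the knockout acts, how atherosclerosis was brought about or whether each library came from its own mouse, so each p-value reflects library-to-library spread, part of which may be technical.

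Before S phase, the origin recognition complex, Cdc6 and Cdt1 load the Mcm2 to Mcm7 helicase onto DNA. Cdc45 and the GINS complex then switch it on, and polymerases with their sliding clamp, PCNA, copy both strands. Cyclins with their kinases drive each step, and the inhibitor p21, which Cdkn1a encodes, holds them back and also binds PCNA. Macrophage precursors in culture divide under macrophage colony-stimulating factor and slow down as they mature, so a day 7 culture can hold both dividing and resting cells. In such bulk samples, fewer dividing cells and less RNA per dividing cell cannot be told apart.

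The values are TPM, the share of transcripts in a library corrected for gene length, and they keep no sequencing depth, so no counting interval is given. Per the labels, a library had 30 M read pairs on average. Smarcd1, the targeted gene, lay between 5.99 and 7.58 TPM in KO libraries and between 11.6 and 15.6 TPM in WT libraries, so the labels and the values go together. The macrophage markers were abundant, with 8 of them summing to 10273 to 10822 TPM in KO libraries and to 10640 to 12930 TPM in WT replicates 1, 5, 6 and 7. Neutrophil markers (7) summed to 1863 to 6137 TPM in KO replicates 1 to 4 and 977 TPM in KO replicate 5, and to 1152 to 1505 TPM in those 4 WT libraries. Myeloid progenitor markers (7) summed to 97.3 to 229.7 TPM in KO replicates 1 to 4 and 51.9 TPM in KO replicate 5, and to 66.0 to 81.3 TPM in the same WT libraries. WT replicates 2, 3 and 4 stood apart from the other 9 libraries. Their macrophage marker sum was 2426 to 5129 TPM, their 7 fibroblast markers summed to 864 to 1990 TPM and their 4 smooth muscle markers to 3154 to 8284 TPM. Their neutrophil sum was 78.9 to 108.6 TPM and their myeloid progenitor sum 4.55 to 6.59 TPM, both below all other libraries. The fibroblast sum was 66.7 to 191 TPM in KO libraries and 39.5 to 144 TPM in WT replicates 1, 5, 6 and 7. The smooth muscle sum was 126 to 420.3 TPM in KO libraries and 74.2 to 285 TPM in those 4 WT libraries. Of the marker genes of T cells (4) and B cells (3), none reached 1 TPM in any library. KO and WT were therefore compared both with all 12 libraries and with the 9 left without WT replicates 2, 3 and 4. Those 3 libraries were singled out by their measured values, so their difference from the other WT libraries is described and not tested. The part of the other cell types in what follows was not tested.

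Promoters of cell cycle genes often carry short elements that group them by phase. RefSeq promoter windows (build GRCm38.p6) were found for 44 of the 55 genes, 50 windows in all, and the 250 bases before each start site were searched on both strands. The spellings TTCCCGC and TTGGCGC of the E2F element were counted together, as were TTTGAA and TTCGAA, spellings of the CHR element of mitotic genes. An E2F spelling occurred in 10 of 30 windows of S-phase genes, in 3 of 14 windows of mitotic genes and in 5.62% of all 32851 windows. A CHR spelling occurred in 6 of the 30 S-phase windows, in 8 of the 14 mitotic windows and in 17.1% of all windows. CCAAT, the element bound by NF-Y, was present in 19 S-phase windows, in 13 of the 14 mitotic windows and in 33.8% of all windows. GGGCGG, the GC box, was present in 20 S-phase windows, 10 mitotic windows and 32.7% of all windows. A match describes letters in a window and does not show that a factor binds there. Windows of 3 genes are shown. Those of Mcm7 (chr5:138171884-138172133) and Cdk1 (chr10:69352913-69353162) held 4 of the 6 spellings, the most in the helicase and mitotic groups. Each had the highest level among those tied (Gins3 for the helicase group, Mki67 and Top2a for the mitotic). The last belongs to Pcna (chr2:132253181-132253430), the 1 gene of the 55 called between KO and WT, with 9 libraries but not with 12. The Pcna window was picked with these values known. All 3 genes lie on the minus strand, the sequences read 5′ to 3′ towards the start site, and capitals mark the elements, some of which touch or are spelled on the opposite strand.

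Mcm7: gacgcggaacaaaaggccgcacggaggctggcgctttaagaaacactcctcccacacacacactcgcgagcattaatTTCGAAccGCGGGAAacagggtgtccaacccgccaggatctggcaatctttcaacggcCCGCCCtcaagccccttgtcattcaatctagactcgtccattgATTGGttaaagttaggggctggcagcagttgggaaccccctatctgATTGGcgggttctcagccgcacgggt
Cdk1: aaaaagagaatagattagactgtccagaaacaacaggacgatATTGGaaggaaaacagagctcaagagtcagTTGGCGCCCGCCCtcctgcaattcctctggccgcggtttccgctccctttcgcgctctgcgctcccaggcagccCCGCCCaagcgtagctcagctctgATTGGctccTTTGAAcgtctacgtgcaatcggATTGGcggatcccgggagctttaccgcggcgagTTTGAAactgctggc
Pcna: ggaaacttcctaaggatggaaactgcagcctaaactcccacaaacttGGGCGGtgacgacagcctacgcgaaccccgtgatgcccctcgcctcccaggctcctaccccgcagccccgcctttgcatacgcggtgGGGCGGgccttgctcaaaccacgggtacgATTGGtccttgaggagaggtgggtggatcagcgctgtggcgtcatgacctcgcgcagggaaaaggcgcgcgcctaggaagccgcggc

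In the Cdk1 window, TTTGAA begins 15 and 71 bases before the start site, CCAAT is spelled on the opposite strand at 48, 80 and 208 bases, and TTGGCGC lies at 178 bases. The Mcm7 window holds TTCCCGC on the opposite strand at 165 bases and the palindrome TTCGAA at 173 bases. The Pcna window holds GGGCGG at 116 and 203 bases and CCAAT on the opposite strand at 87 bases. The E2F and CHR spellings searched are not among those 250 bases.

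Levels spanned a wide range. Averaged over the 12 libraries, Pcna was highest at 687 TPM, followed by Cdkn1a at 372 TPM, the G1 cyclin gene Ccnd1 at 193 TPM and the helicase gene Mcm6 at 165 TPM. The lowest were Orc1, the largest origin recognition subunit, at 4.27 TPM, Gins3 at 5.42 TPM and Pole, the leading strand polymerase, at 9.14 TPM. The proliferation marker Mki67 was present in all 12 libraries, at 18.4 to 36.0 TPM.

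The question put to the KO libraries was whether any of these genes changed with the loss of Baf60a. Pcna was the clearest difference. It stood at 788, 902, 896, 831 and 809.6 TPM in KO replicates 1 to 5, against 623, 555, 570.1, 397, 658, 602 and 618 TPM in WT replicates 1 to 7. The groups do not overlap, with every KO library above every WT library and WT replicate 4 far below the rest. With 9 libraries Pcna rose by 0.43 ± 0.0491 (SE) on the log2(TPM + 1) scale, from limma with an adjusted p of 0.00454, with means of 845 ± 51.5 TPM in KO (SD, n = 5) and 625.4 ± 23.4 TPM in WT (SD, n = 4). With 12 libraries the log2 fold change was 0.57 ± 0.11 (SE) against a WT mean of 575 ± 85.5 TPM (SD, n = 7), and the limma adjusted p was 0.0926, above the threshold of 0.05, so Pcna was not called. Leaving out WT replicate 4 alone brought the 12-library adjusted p to 0.0116 at a log2 fold change of 0.48. Pcna (ENSMUSG00000027342) lies on chromosome 2 from 132249162 to 132253314 in mm10. Its processed copy Pcna-ps2 on chromosome 19 was at 3.57 to 4.91 TPM in KO libraries and 2.29 to 3.16 TPM in WT libraries. The log2 fold change of the copy was 0.49 with 9 libraries and 0.50 with 12 (limma adjusted p of 0.0361 and 0.0926). Reads of the pair may be divided between them, so the level of each is uncertain, though the copy holds little of the total.

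**Figure D1:**
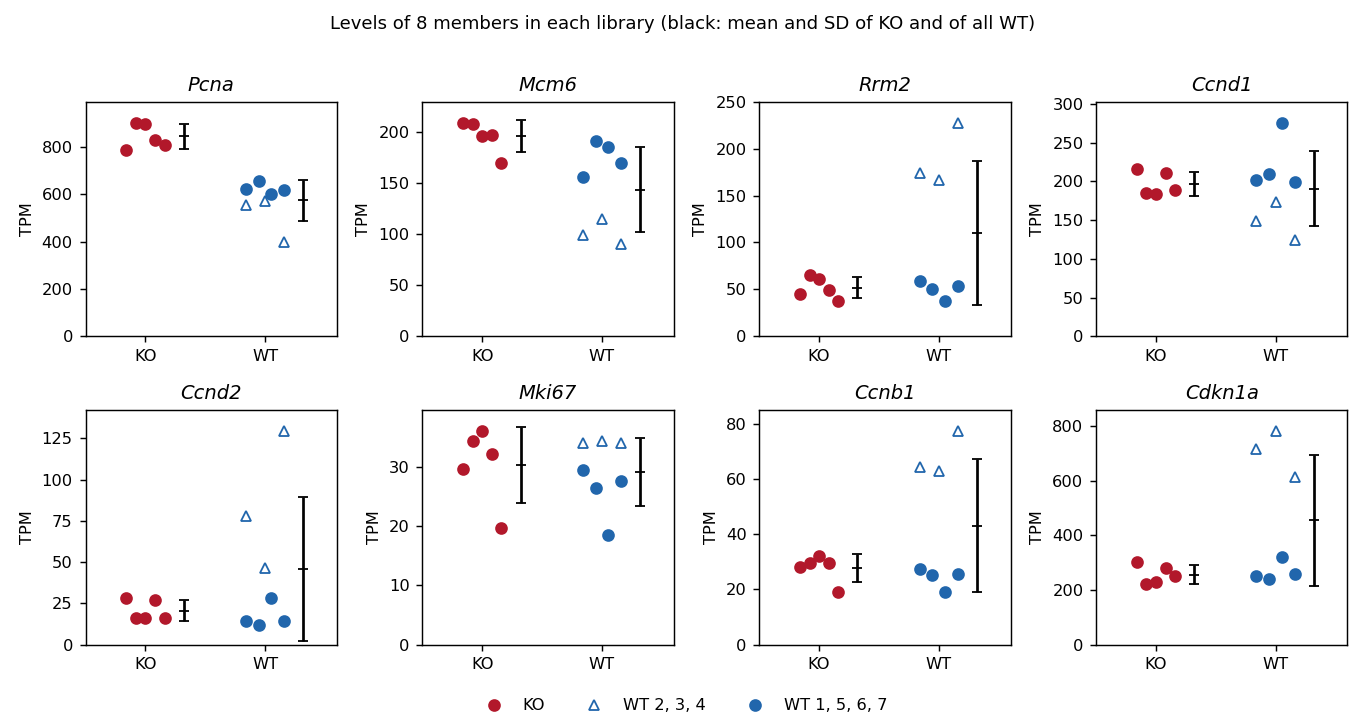
TPM of 8 genes (vertical axes, each starting at 0) in each KO and WT library, with WT replicates 2, 3 and 4 as open triangles and the mean and SD of each genotype in black. Pcna is at 788 to 902 TPM in KO libraries and at 397 to 658 TPM in WT libraries, while Rrm2, Ccnd2, Ccnb1 and Cdkn1a are high in WT replicates 2, 3 and 4.

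Pcna was the 1 member called with 9 libraries, where 1.61% of the 11152 genes tested were called higher in KO and 0.717% lower (2.33% in either direction). That is 1 of 55, a share near the one over all genes, so Pcna is given as a single gene. With 12 libraries 0 of the 55 members were called by limma, where 0.108% of all genes were called higher and 0.0179% lower (0.126% in either direction), and 5 of the 55 members had an unadjusted p under 0.05, beside 1954 of all 11152 genes. The median log2 fold change of the 55 was -0.09 with 12 libraries and 0.12 with 9, beside 0.04 and 0.05 over all genes tested. Of the 55, 30 had a negative log2 fold change with 12 libraries and a positive one with 9, and 3 had the reverse. Pcna was also the only member in which the KO libraries lay above all 7 WT libraries, a pattern shown by 2.92% of all genes tested, and no member had all KO libraries below all WT libraries (0.637% of all genes). Against WT replicates 1, 5, 6 and 7 alone, the KO libraries lay above in Pcna and in no other member (7.09% of all genes) and below in no member (2.08%).

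The loading and helicase genes gave small differences between KO and WT. Of the 16, 9 had positive log2 fold changes with 12 libraries and 14 with 9, and none was called in either set. Their median was 0.06 with 12 libraries and 0.05 with 9. Mcm6, a helicase subunit, was at 209, 208, 197, 197 and 169.8 TPM in KO replicates 1 to 5, against 156, 98.7, 115, 90.1, 191, 185 and 170.1 TPM in WT replicates 1 to 7. The KO libraries overlap WT replicates 5, 6 and 7, and the low values are those of WT replicates 2, 3 and 4. Its log2 fold change was 0.50 ± 0.192 (SE) with 12 libraries and 0.16 ± 0.0754 (SE) with 9 (limma adjusted p of 0.25 and 0.287). The log2 fold changes of Mcm2, Mcm3, Mcm4, Mcm5 and Mcm7, the other helicase subunits, lay between 0.10 and 0.23 with 12 libraries and between 0.0011 and 0.08 with 9. Mcm2 to Mcm7 thus had positive values in both sets, with a median of 0.11 with 12 libraries and 0.05 with 9, but under median-ratio scaling of the libraries 4 of the 6 stayed positive with 9. On the 4 libraries that share replicate numbers within the 9, 1 of the 6 was positive, with a median of -0.06, and 6 of the 30 S-phase genes were positive. Cdt1, which loads the helicase, had 0.21 with 12 libraries and -0.08 with 9. Its partner Cdc6 had -0.09 and 0.05, and the origin recognition genes Orc1 and Orc6 had -0.26 and -0.30 with 12 libraries and 0.18 and -0.01 with 9. Among the activators, Cdc45 had -0.22 and 0.09, Mcm10 -0.08 and 0.14, Gins1 0.11 and 0.0057, Gins2 -0.18 and 0.04, Gins3 -0.04 and 0.12, and Gins4 0.02 and 0.09.

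The other genes of the replication fork also lay close to no change. Pola1, the catalytic subunit of the priming polymerase, was at 12.4, 13.1, 13.2, 12.6 and 10.1 TPM in KO replicates 1 to 5 and at 8.93 to 11.2 TPM in the 7 WT libraries. KO replicate 5 is the library inside the WT range. The log2 fold change of Pola1 was 0.24 ± 0.0795 (SE) with 12 libraries and 0.18 ± 0.077 (SE) with 9 (limma adjusted p of 0.223 and 0.249), and without KO replicate 5 the 9-library adjusted p was 0.0481. Lig1, which seals nicks between Okazaki fragments, had 0.25 and 0.13. Fen1, which trims their flaps, had 0.03 and 0.05, and the primase gene Prim1 had -0.10 and 0.04. Rfc3 and Rfc4, subunits of the loader that places PCNA on DNA, had -0.03 and -0.14 with 12 libraries and 0.0034 and 0.11 with 9. The polymerase genes Pold1 and Pole had 0.19 and -0.07 with 12 libraries and -0.0091 and 0.11 with 9.

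The genes that supply nucleotides were set apart less by genotype than by 3 WT libraries. Rrm2, the regulated subunit of ribonucleotide reductase, was at 44.9, 64.9, 61.5, 49.3 and 38.0 TPM in KO replicates 1 to 5. It was at 173.9, 167 and 227 TPM in WT replicates 2, 3 and 4, and at 37.9 to 59.1 TPM in the other 4 WT libraries. The KO range covers those 4 libraries almost wholly. Its log2 fold change was -0.78 ± 0.447 (SE) with 12 libraries and 0.03 ± 0.171 (SE) with 9 (limma adjusted p of 0.329 and 0.944). Tyms, which makes thymidylate, was at 34.8 to 46.2 TPM in KO libraries, at 75.8 to 84.9 TPM in WT replicates 2, 3 and 4 and at 30.1 to 38.9 TPM in the other WT libraries. Its log2 fold change was -0.26 with 12 libraries and 0.23 with 9. Rrm1, the large reductase subunit, had -0.26 and 0.12, and the thymidine kinase gene Tk1 had -0.34 and -0.08. Uhrf1, which helps copy DNA methylation to new strands, had -0.02 and 0.04. None of the 5 was called in either set.

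Among the regulators of G1 and of entry into S phase, the D-type cyclins differed from each other. Ccnd1 was at 216, 185, 184, 210.3 and 189 TPM in KO replicates 1 to 5, at 149, 174 and 125 TPM in WT replicates 2, 3 and 4 and at 199 to 276 TPM in the other WT libraries. Ccnd2 was at 28.0, 16.01, 16.4, 26.8 and 15.97 TPM in KO replicates 1 to 5, at 77.9, 46.2 and 129 TPM in WT replicates 2, 3 and 4, and 14.2, 12.1, 28.0 and 14.4 TPM in WT replicates 1, 5, 6 and 7. WT replicates 2, 3 and 4 thus held the lowest levels of Ccnd1 and the highest of Ccnd2. The log2 fold change of KO over WT was 0.08 for Ccnd1 with 12 libraries and -0.16 with 9, and -0.66 and 0.28 for Ccnd2. Cdk2, the kinase of cyclin E, was at 39.2 to 53.4 TPM in KO libraries and 33.8 to 45.1 TPM in WT libraries, with a log2 fold change of 0.28 ± 0.0883 (SE) with 12 libraries and 0.20 ± 0.0871 (SE) with 9 (limma adjusted p of 0.217 and 0.264). Without KO replicate 5 the 9-library adjusted p of Cdk2 was 0.0484. Cdk4, the kinase of D-type cyclins, lay at 110.4 to 114 TPM in KO libraries, 162 to 199.7 TPM in WT replicates 2, 3 and 4 and 109.9 to 119 TPM in the others. Its log2 fold change was -0.28 with 12 libraries and -0.0063 with 9. The cyclin E genes Ccne1 and Ccne2 had log2 fold changes of -0.33 and -0.27 with 12 libraries and 0.14 and -0.03 with 9. The transcription factor gene E2f1 had 0.10 and 0.04. None of the 7 regulators was called in either set.

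The 17 genes of late G2 and mitosis depended on which WT libraries were used. Their median log2 fold change of KO over WT was -0.28 with 12 libraries, where 14 of 17 were negative, and 0.21 with 9, where all 17 were positive (over all genes tested, 57.9% and 67.5% were positive). With library quality weights the 12-library fit had 16 of 17 positive, and on the 4 libraries that share replicate numbers within the 9, 0 of 17 were positive with a median of -0.20. None was called in either set, and the lowest limma adjusted p among them was 0.392 with 12 libraries and 0.372 with 9. Ccnb1, the mitotic cyclin B1, was at 28.3, 29.5, 32.3, 29.7 and 19.1 TPM in KO replicates 1 to 5. It was at 64.3, 62.9 and 77.4 TPM in WT replicates 2, 3 and 4, and 27.4, 25.1, 18.9 and 25.6 TPM in WT replicates 1, 5, 6 and 7. KO replicates 1 to 4 lie just above those 4 WT libraries, and KO replicate 5 lies within them. Its log2 fold change was -0.45 ± 0.35 (SE) with 12 libraries and 0.18 ± 0.153 (SE) with 9. Its pseudogene Ccnb1-ps stayed under 1 TPM. Mki67, found in dividing cells, was at 29.6, 34.3, 36.0, 32.1 and 19.7 TPM in KO replicates 1 to 5, at 33.9, 34.4 and 33.9 TPM in WT replicates 2, 3 and 4, and 29.5, 26.5, 18.4 and 27.6 TPM in WT replicates 1, 5, 6 and 7. Its log2 fold change was 0.05 ± 0.174 (SE) with 12 libraries and 0.24 ± 0.183 (SE) with 9. For Mki67, WT replicates 2, 3 and 4 lie inside the KO range, whereas for Ccnb1 they lie far above it.

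**Figure D2:**
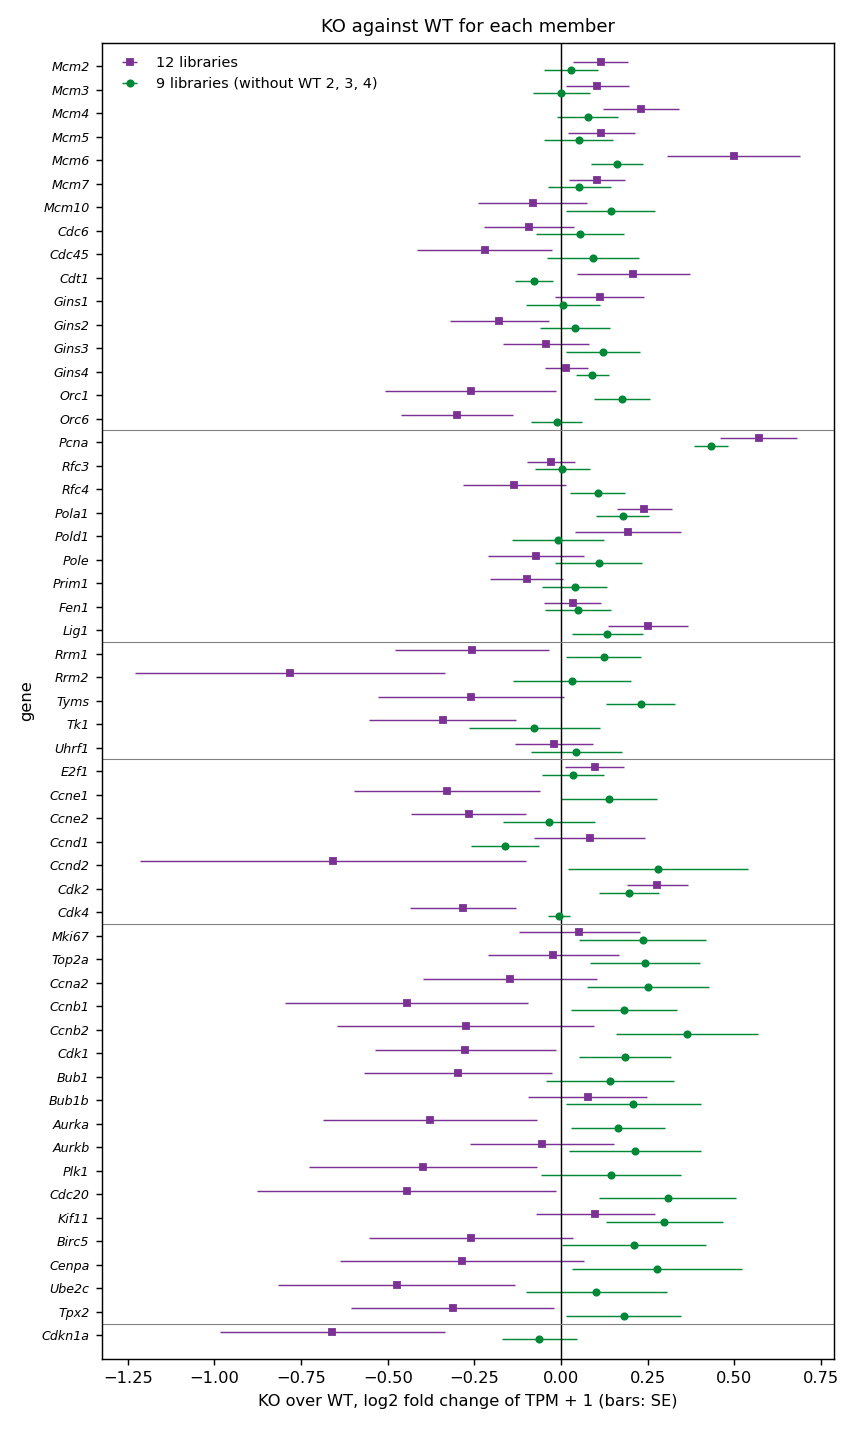
Log2 fold change of KO over WT on the log2(TPM + 1) scale (horizontal axis, bars are SE) for each gene (vertical axis), with all 12 libraries as purple squares and with 9 as green circles. The mitotic genes lie between -0.47 and 0.10 with 12 libraries and between 0.10 and 0.36 with 9, and Pcna lies to the right of all other genes in both.

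Of the entry kinases and cyclins, Cdk1 had log2 fold changes of -0.28 with 12 libraries and 0.18 with 9, Ccna2 -0.15 and 0.25, Ccnb2 -0.28 and 0.36, and Plk1 -0.40 and 0.14. Of the spindle and chromosome genes, the Aurora kinase genes Aurka and Aurkb had -0.38 and -0.05 with 12 libraries and 0.16 and 0.21 with 9. The spindle assembly gene Tpx2 had -0.31 and 0.18, the motor gene Kif11 0.10 and 0.30, the topoisomerase gene Top2a -0.02 and 0.24, the centromere histone gene Cenpa -0.29 and 0.28, and Birc5, of the chromosomal passenger complex, -0.26 and 0.21. Of the checkpoint and exit genes, Bub1 had -0.30 and 0.14, Bub1b 0.08 and 0.21, and the activators of the anaphase promoting complex and its ubiquitin carrier, Cdc20 and Ube2c, -0.45 and -0.47 with 12 libraries and 0.31 and 0.10 with 9.

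Cdkn1a, the gene of p21 and the 1 inhibitor measured, was at 301, 223, 228, 278 and 252 TPM in KO replicates 1 to 5. It was at 715, 781 and 614 TPM in WT replicates 2, 3 and 4, and 252, 241, 321 and 257 TPM in WT replicates 1, 5, 6 and 7. The KO libraries lie among those 4, and WT replicates 2, 3 and 4 lie far above all others. The log2 fold change was -0.66 ± 0.325 (SE) with 12 libraries and -0.06 ± 0.108 (SE) with 9 (limma adjusted p of 0.303 and 0.801).

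Within the WT group, replicates 2, 3 and 4 lay above replicates 1, 5, 6 and 7 for most mitotic genes and on both sides of them for S-phase genes. All 3 lay above all 4 in 16 of the 17 mitotic genes, where 29.9% of all genes tested did so. The exception was Bub1b, at 23.4, 21.6 and 25.7 TPM against 15.4 to 22.7 TPM. Relative to the median of the other 4, the median ratio over the mitotic genes was 1.94 in WT replicate 2, 1.95 in replicate 3 and 2.09 in replicate 4, and 12 of the 17 were at least 1.5-fold higher in each of the 3 libraries (12.7% of all genes). The ratio was 2.91, 2.67 and 4.47 for Cdc20 and 2.54, 2.48 and 3.06 for Ccnb1, but 1.26, 1.27 and 1.26 for Mki67. These ratios range widely between mitotic genes.

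Among the 30 S-phase genes, 16 lay above and 8 below the other 4 WT libraries in all 3 (29.9% and 28.3% of all genes tested). The 8 below were Mcm2, Mcm3, Mcm4, Mcm6, Mcm7, Cdt1, Pcna and Pold1. The sixth helicase gene, Mcm5, measured 95.5, 109.3 and 87.7 TPM in these 3 libraries and 106 to 112 TPM in the remaining WT libraries. Of the 8, only Mcm6 was at least 1.5-fold lower in each library, at ratios of 0.556, 0.649 and 0.507 (9.51% of all genes). The 16 above included all 5 genes of the nucleotide group, Uhrf1 among them. They also included Cdc45, Mcm10, Cdc6, Gins2, Gins3, Gins4, Orc1 and Orc6 among the loading and helicase genes and Rfc4, Pole and Prim1 at the fork. Ratios were 3.34, 3.20 and 4.37 for Rrm2, 2.23, 1.997 and 3.04 for Orc1 and 1.97, 2.17 and 2.21 for Tyms. Mcm2, Mcm3, Mcm4, Mcm6, Mcm7 and Pcna were thus lower in the libraries where Cdc45, Mcm10 and the nucleotide genes were higher. Some of these shifts were small, with ratios of 0.858, 0.905 and 0.855 for Mcm2. The count of 8 below is near the 28.3% of all genes tested, so it is not read as a trait of these genes. Against all 9 other libraries, KO included, WT replicates 2, 3 and 4 lay above in 31 of the 55 genes (23.6% of all genes) and below in Mcm4, Mcm6, Cdt1, Pcna and Ccnd1 (25.5%). Ccnd2 had the largest ratios of all 55, at 5.45, 3.23 and 9.05, and Cdkn1a, an inhibitor of the cycle, had 2.81, 3.07 and 2.41. The levels of fibroblast and smooth muscle markers given above were high in the same 3 libraries. Col1a1 was at 327 to 822 TPM against 15.7 to 73.3 TPM in the other 9, and Acta2 at 1574 to 4236 TPM against 42.3 to 215 TPM. The growth factor receptor gene Csf1r was low, at 169.6 to 275 TPM against 541 to 910.1 TPM. The neutrophil marker S100a9 was at 3.39 to 26.1 TPM against 536 to 3507 TPM. Mpo, a myeloid progenitor marker, was at 0.03 to 0.12 TPM against 11.1 to 62.3 TPM. The part of these cell types in the differences was not tested.

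**Figure D3:**
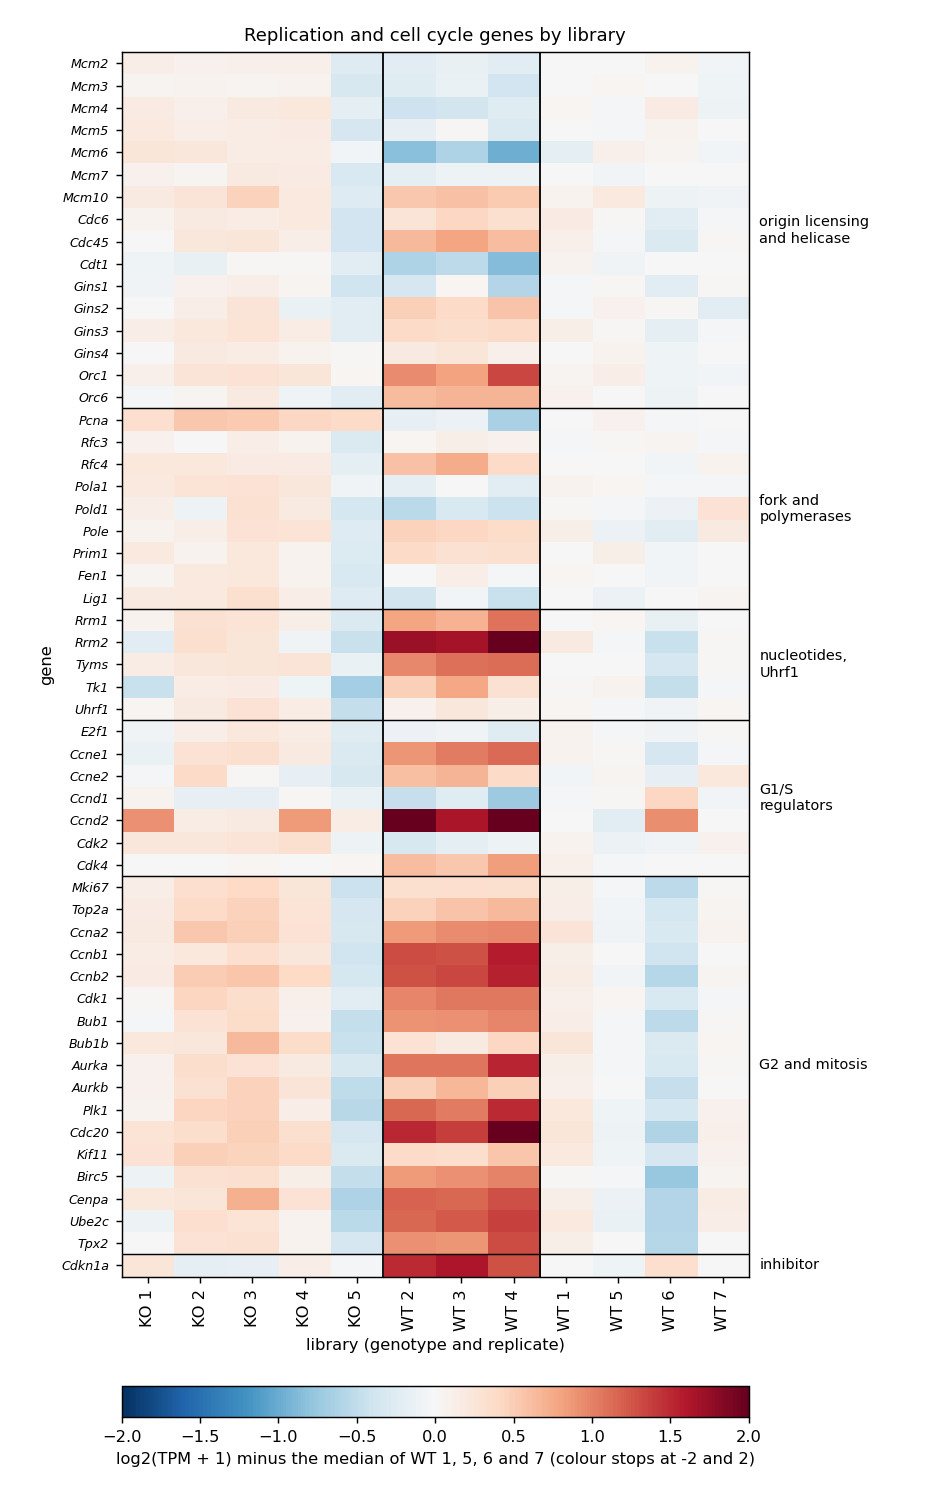
Difference of log2(TPM + 1) from the median of WT replicates 1, 5, 6 and 7 for each gene (vertical axis, grouped by role) in each library (horizontal axis), with red for higher and blue for lower. WT replicates 2, 3 and 4 are red in the mitotic block and blue at Mcm6 and Cdt1, KO replicate 5 and WT replicate 6 are blue in the mitotic block, and Pcna is red in the 5 KO libraries.

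The mean log2(TPM + 1) of each phase group sets the libraries side by side. For the 17 mitotic genes it was 4.88, 5.13, 5.21, 4.997 and 4.36 in KO replicates 1 to 5. It was 5.66, 5.67 and 5.87 in WT replicates 2, 3 and 4 and 4.92, 4.73, 4.31 and 4.82 in WT replicates 1, 5, 6 and 7. For the 30 S-phase genes the mean was 5.38, 5.47, 5.53, 5.43 and 5.06 in KO replicates 1 to 5. It was 5.48, 5.58 and 5.47 in WT replicates 2, 3 and 4 and 5.34, 5.32, 5.21 and 5.30 in WT replicates 1, 5, 6 and 7. The mitotic mean minus the S-phase mean was -0.70 to -0.32 in KO libraries and -0.90 to -0.41 in those 4 WT libraries, which overlap. It was 0.10 to 0.40 in WT replicates 2, 3 and 4, above all other libraries.

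**Figure D4:**
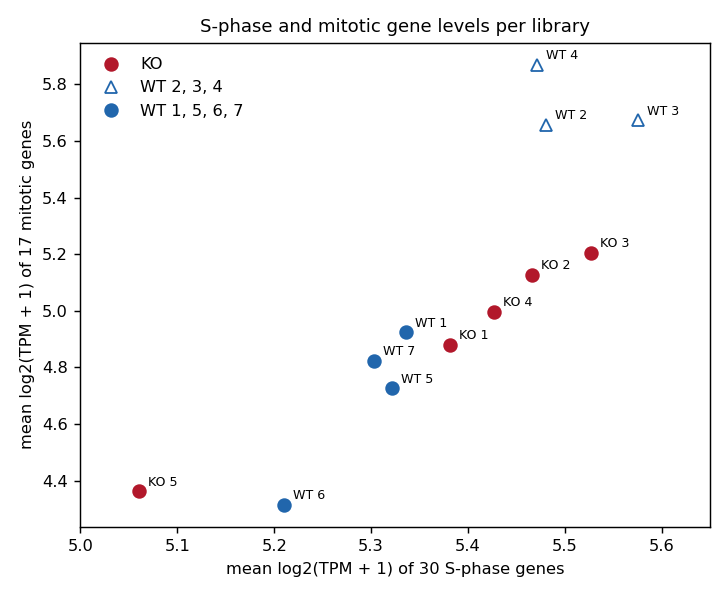
Mean log2(TPM + 1) of the 17 mitotic genes (vertical axis) against that of the 30 S-phase genes (horizontal axis), 1 point per library. WT replicates 2, 3 and 4 lie above 5.6 on the mitotic axis and apart from the other 9, among which KO replicate 5 and WT replicate 6 have the lowest values on both axes.

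Single libraries within each genotype stood low. KO replicate 5 was the lowest KO library in 50 of the 55 genes, all 17 mitotic ones included, where it was lowest in 25.95% of all genes tested. WT replicate 6 was the lowest of WT replicates 1, 5, 6 and 7 in 40 of the 55, again with all 17 mitotic genes, where it was lowest in 33.62% of all genes. For example, Top2a was at 65.3, 76.0, 80.3, 70.4 and 45.9 TPM in KO replicates 1 to 5, and 63.6, 55.99, 45.6 and 60.5 TPM in WT replicates 1, 5, 6 and 7. In Mcm2 to Mcm7 these 2 libraries differed. KO replicate 5 was the lowest KO library in all 6 genes. WT replicate 6 was the lowest of WT replicates 1, 5, 6 and 7 in 0 of the 6 and the highest in 3. For Pcna, WT replicate 6 was the lowest of WT replicates 1, 5, 6 and 7, at 602 TPM. KO replicate 5 was not the lowest KO library for Pcna, at 809.6 TPM and above KO replicate 1. Among KO libraries, replicate 5 also had the lowest neutrophil and myeloid progenitor sums, given above. It had the highest KO sums of smooth muscle markers, at 420.3 TPM against 126 to 259 TPM in the other 4, and of fibroblast markers, at 191 TPM against 66.7 to 183 TPM. WT replicate 6 held the highest macrophage marker sum, 12930 TPM, and the lowest fibroblast sum, 39.5 TPM. Their part in the low values was not tested. Without KO replicate 5 the 9-library median of the mitotic genes was 0.37, and without WT replicate 6 it was 0.09. Without both libraries, left out after these values were seen, it was 0.24. In that setting Mcm5 (log2 fold change 0.17) and Tyms (0.21) passed the limma threshold beside Pcna, both with an adjusted p of 0.0304. These are 3 of the 55 members, beside 494 of all 11152 genes tested. Because the libraries were chosen by low values of the same genes, no conclusion is drawn from these calls.

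Other genes of the same processes were read from lists that share no gene with the 55. Of 45 further S-phase genes, 0 were called by limma in either set. With 9 libraries 43 had positive log2 fold changes (67.5% of all genes tested) and 5 an unadjusted p under 0.05 (2111 of all 11152 genes). With 12 libraries the counts were 24 (57.9%) and 6 (1954 of 11152), so unadjusted p-values under 0.05 were less frequent in this list than over all genes in both sets, a difference that was not tested. Of 65 further mitotic genes, 0 were called by limma in either set, with 62 positive and 1 at an unadjusted p under 0.05 with 9 libraries, and 10 positive and 2 with 12. Their medians with 9 libraries were 0.10 for S phase and 0.20 for mitosis, and with 12 libraries 0.03 and -0.19. Within WT, replicates 2, 3 and 4 lay above replicates 1, 5, 6 and 7 in 61 of the 65 mitotic genes and in 23 of the 45 S-phase genes, beside 29.9% of all genes tested. Rfc1, the largest subunit of the clamp loader, had all KO libraries above all WT libraries, at 31.2 to 33.6 TPM against 25.9 to 30.6 TPM. It was the 1 gene of the 45 to do so, near the 2.92% of all genes tested, and was chosen for naming after its values were seen. Its log2 fold change was 0.12 with 9 libraries (limma adjusted p of 0.128) and 0.19 with 12 (0.208). With 9 libraries, KO libraries lay above the WT libraries in Rfc1 and Exo1 (7.09% of all genes tested did so).

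Of 30 further regulators with a row in the table, 1 was called with 9 libraries, a share near the 2.33% of all genes tested. It is given here as a single gene. Cdkn2b, the gene of the Cdk4 and Cdk6 inhibitor p15, was at 1.33, 1.68, 1.63, 1.77 and 1.64 TPM in KO replicates 1 to 5, at 6.78, 5.69 and 12.4 TPM in WT replicates 2, 3 and 4, with 2.62, 2.70, 2.80 and 2.70 TPM in WT replicates 1, 5, 6 and 7. All KO libraries lie below all WT libraries, at low levels, a pattern shown by 0.637% of all genes tested. Cdkn2b fell by 0.51 on the log2(TPM + 1) scale with 9 libraries (SE 0.075, limma adjusted p of 0.0148), and its 12-library value was -1.05 (adjusted p of 0.214). The 9-library call was lost in 3 of 16 alternative settings. Its neighbour Cdkn2a, chosen for naming after its values were seen, was at 0.61 to 1.87 TPM in KO libraries, 16.5 to 61.2 TPM in WT replicates 2, 3 and 4 and 0.58 to 2.03 TPM in the other WT libraries.

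A further list held 17 tested targets of p53, the factor that drives Cdkn1a after DNA damage. With 9 libraries limma called 1 higher and 1 lower (1.61% and 0.717% of all genes tested). With 12 libraries 0 were called (0.126% in either direction). An unadjusted p under 0.05 was found in 8 of the 17 with 9 libraries (2111 of all 11152 genes). With 12 libraries it was found in 4 (1954 of 11152). The difference from all genes was not tested. Plk2, a polo-like kinase gene, was at 95.7, 135, 132, 107 and 143 TPM in KO replicates 1 to 5, and 77.4, 87.6, 84.7 and 80.8 TPM in WT replicates 1, 5, 6 and 7, and rose by 0.55 ± 0.112 (SE) in limma (adjusted p of 0.0405). WT replicates 2, 3 and 4, at 149.9, 112 and 202 TPM, reached into and above the KO range, and the 12-library value was 0.18. Sesn2, of the sestrin family of stress proteins, was at 13.7 to 14.7 TPM in KO libraries and 16.1 to 31.6 TPM in all WT libraries. All KO libraries lay below all WT libraries in 0.637% of all genes tested. Sesn2 fell by 0.24 ± 0.0452 (SE) in limma with 9 libraries (adjusted p of 0.0309). Its 12-library value was -0.57 and was not called (limma adjusted p of 0.217). Plk2 lost its call in 12 of 17 alternative settings and Sesn2 in 8 of 17. Within WT, 15 of the 17 targets lay higher in replicates 2, 3 and 4 than in the other 4 (29.9% of all genes tested), with median ratios of 2.07, 1.95 and 2.53. Ccng1, the cyclin G1 gene, named after its values were seen, was at 146 to 211 TPM in those 3 libraries, against 41.6 to 47.8 TPM in the other 4. Most p53 targets and most mitotic genes were thus high in the same 3 libraries.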

How the data were processed

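The authors deposited 1 table of TPM values for 23438 Ensembl gene IDs in 12 libraries, made with Salmon 1.2.0 on mm10, per the submitters' processing notes. Annotation release, gene-level summing and strand handling: not given in the sources used here. Without strand, reads from the bases shared by overlapping genes on opposite strands cannot be assigned to either gene. This concerns Mcm7 and Cops6, Cdc45 and Ufd1, Cdk4 and Tspan31, Cdc20 and Elovl1, and Rfc4 and Eif4a2. TPM values are shares, so abundant transcripts that rise push the others down. The members and lists were chosen with earlier results of these data known.

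Limma-trend (limma 3.58.1, R 4.3.3) was fitted to log2(TPM + 1) over 11152 genes (1 TPM or more in 5 or more libraries), with genotype as the only term and Benjamini-Hochberg adjustment over these genes at 0.05. Fold changes on this scale understate those of low genes. The fit was also run on simulated data, drawn independently from each gene's mean and within-group spread. Those data lack the split within the WT group, so no conclusion is drawn from them. All 55 members, up to 3 called genes per further list and direction, Smarcd1 and 5 marker genes were named by rule. S-phase genes are those of loading and helicase, fork, nucleotide supply and Uhrf1. No list was given a p-value. Alternatives were median-ratio scaling, other filters, a pseudocount of 0.1, library quality weights, a replicate block and leaving out libraries.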

Additional observations from a re-analysis of the deposited data

Results flagged for a closer look

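Chance alone marks about 1 in 20 groups by the measure used here, the gap of the most extreme library to its nearest neighbour divided by the range of its group. Of 128 groups of libraries examined (KO or WT, for each gene and each group mean), 12 were marked, and 11 of the 12 were KO replicate 5 as the lowest of the 5 KO libraries. For single genes the ratio of gap to range was 0.854 for Mcm2, 0.936 for Mcm3, 0.869 for Mcm5, 0.763 for Cdc6, 0.839 for Rfc4, 0.726 for Pola1 and 0.733 for Cdk2. For mean log2(TPM + 1) in KO replicate 5 it was 0.736 over the loading and helicase genes, 0.759 over the fork genes, 0.78 over the G1 and S-phase entry regulators and 0.918 over Mcm2 to Mcm7. The genes of these groups overlap and vary together, so the 11 are not independent. The remaining mark was Pcna in WT replicate 4, the lowest WT library at 397 TPM, with a ratio of 0.605.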

How the results depend on the processing

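Over 21 alternatives the 12-library log2 fold change of Pcna stayed between 0.43 and 0.61 (limma adjusted p of 6.78e-04 to 0.29), and over 17 alternatives the 9-library value stayed between 0.32 and 0.46 (adjusted p of 0.00138 to 0.535, called in 15). With 12 libraries the count of members called was 0, and it was 1 (Pcna) with library quality weights and 1 without WT replicates 2, 3 and 4. Leaving out 1 library gave 0 to 1 members with 12 libraries and 1 to 3 with 9 (Pola1 and Cdk2 joined Pcna without KO replicate 5). Without KO replicate 5 and WT replicate 6 together, chosen after seeing the data, 3 members were called with 9 libraries, and 494 genes in place of 260, and 6 genes in place of 14 with 12 libraries. Over all genes, the 12-library count of 14 was 4 with median-ratio scaling, 759 with quality weights and 260 without WT replicates 2, 3 and 4, and 2 to 36 with 1 library left out. The 9-library count of 260 was 758 with quality weights and 51 to 462 with 1 library left out. With median-ratio scaling it was 221, split 83 higher and 138 lower in place of 180 and 80, and the S-phase members with positive values fell to 18 of 30 in place of 26. Same-numbered libraries were not treated as pairs in the main fits. With 12 libraries their deviations correlated at -0.22 to 0.22, and KO replicates 2 and 3, but not 1, 4 and 5, correlated best with their own number. With 9 libraries the correlation was -0.28 for number 1 and 0.26 for number 5. These values do not settle whether the numbers mark pairs. The replicate block gave 0 genes on the 10 libraries that share numbers (3706 at an unadjusted p under 0.05), against 13 without the block. On the 4 libraries sharing numbers in the 9-library set it gave 0 genes and 0 members, as did the same 4 without the block (897 and 825 genes at an unadjusted p under 0.05), a set with fewer samples. Pcna kept its sign in all of these alternatives. With 9 libraries Mcm5 changed sign in 2 of 17 and Tyms in 0 of 17, and with 12 Tyms changed in 2 of 21. Sign changes were more frequent in other members, up to 8 of 17 with 9 libraries (Mcm3 and Rfc3) and 7 of 21 with 12 (Top2a). The cause of the shifts was not tested. TPM keeps no depth, so the precision of the low genes is unknown.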
